A study of Mus musculus with 18 samples.

Results

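The members described here are CpG-dense 8-base sequences (8-mers) that lack the core motifs of the bZIP proteins tested. An 8-mer was taken if it held 3 or 4 CpG dinucleotides and, on either strand, none of TGAC and ACGT, the first and the central 4 bases of the cAMP response element (CRE), and GCAA, which C/EBP proteins read as their half-site. The rule used sequence alone and chose 154 of the 65530 8-mers in the deposited table, 153 with 3 CpGs and 1, CGCGCGCG, with 4. At least 6 of the 8 bases of each member were G or C. The 154 fell into 73 pairs of reverse complements and 8 self-complementary 8-mers.

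The study measured, on protein binding microarrays, how 3 mouse bZIP (basic leucine zipper) proteins, CREB1, ATF1 and JUND, bound double-stranded DNA probes carrying different forms of cytosine. Each protein was a DNA-binding domain with short native flanks, fused to GST and made by transcription and translation in vitro, so no full-length protein and no cell was involved. Probes were made double-stranded with unmodified cytosine (C), 5-methylcytosine (5mC) or 5-hydroxymethylcytosine (5hmC), and only the newly synthesized strand carried the modified base, at every one of its cytosines. The 9 groups (CREB1 C, CREB1 5mC, CREB1 5hmC and the same for ATF1 and JUND) held 2 arrays each, 18 in all. The labels do not state that both arrays of a group used proteins prepared separately. The p-values thus reflect array-to-array spread alone, and that spread may be technical.

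As background, bZIP proteins bind DNA as dimers, each basic region reading one half-site. CREB1 and ATF1 are close relatives that bind the CRE, TGACGTCA, in promoters that respond to cAMP, and JUND is an AP-1 protein that binds TGACTCA. The CpG at the centre of the CRE is a methylation site, and CpG-dense DNA is typical of the CpG islands at vertebrate promoters. Modification of these hemi-modified probes is not the symmetric CpG methylation common in vertebrate genomes, since the printed strand stayed unmodified and cytosines outside CpG were modified too.

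The 8-mers are written 5′ to 3′ as they read on the modified strand. The first set is shown because its values carry the main results. Capitals mark GACG, which is the CRE half-site TGACG without its T, or CGTC, the same 4 bases read from the opposite strand. GACG was one of the sequence features examined among the members, not part of the rule.
highest CREB1 member: cGACGcgt
self-complementary member with both: CGTCGACG
large CREB1 fall with 5mC: CGTCgcgt
reverse complement of that member: acgcGACG
large CREB1 and ATF1 fall: cgCGTCgt
reverse complement of that member: acGACGcg
fall with 5mC and 5hmC: CGTCGTCg
CREB1 fall with 5hmC: ccGACGcg
ATF1 rise with 5mC: cgcGACGc
The second set holds no GACG or CGTC and is shown because its members rose with 5mC or led the JUND values.
CREB1 rise with 5mC: cgcgcgca
CREB1 and ATF1 rise with 5mC: cgcgcacg
4 CpGs: cgcgcgcg
high on JUND C: gcgcgcga

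The members stood on probes of 35 variable bases, of which the array had 40330. Each member was carried by a median of 17.0 probes (5th percentile 13.7, 95th percentile 21.0), close to the median of 17.0 for all other 8-mers. CCGGCGCG had the fewest, 8, and was the only member under 10. The largest number was 24. Together the members occupied 1457 distinct probes, and 723 of these (49.6%) held 2 or more members, so neighbouring members share probes and are not independent measurements. Of the 1457 probes, 851 (58.4%) held none of the 3 excluded motifs anywhere on either strand, against 52.9% of all probes, and such motif-free probes numbered a median of 10.0 per member (3 to 18). An excluded motif can also form across the edge of a member. This occurred on 7 of 16 probes of CGTCGACG, 6 of 16 of CGTCGCGT, 3 of 16 of CGACGCGT and 0 of 16 of CCGACGCG. Values recomputed from motif-free probes alone are therefore given beside the main results.

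A motif-free probe of each of 3 members shows the sequence around it, again on the modified strand with the member in capitals. Each is the motif-free probe of middle rank (the lower of 2 where the number is even) by signal on CREB1 C replicate 1.
probe with CGACGCGT: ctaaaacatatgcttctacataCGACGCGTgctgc
probe with CGTCGCGT: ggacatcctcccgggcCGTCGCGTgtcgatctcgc
probe with CGCGCGCA: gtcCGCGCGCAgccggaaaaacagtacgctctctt
With CREB1, the CGACGCGT probe had a background-subtracted signal of 7842 and 17012 on the C arrays, 12299 and 24538 on 5mC, and 1707 and 2907 on 5hmC. With CREB1, the CGTCGCGT probe had 2597 and 5042 on C, 1156 and 4344 on 5mC, and 564 and 876 on 5hmC. The 5hmC values of both probes lay below their C values, while the ranges on C and 5mC overlapped for both. The CGCGCGCA probe had signals of 1148 and 2616 with CREB1 on C, 818 and 4490 on 5mC, and 1030 and 1173 on 5hmC, and these ranges overlapped. Raw signals also follow the brightness of the array, and the z-scores used below are centred within each array.

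The unit of the results is the deposited z-score, a linear score with a median near 0 on each array. Over the members it followed the median signal of the probes carrying an 8-mer on their synthesized strand (Spearman rho 0.939 to 0.980 over the 18 arrays), and less that of probes carrying it on the printed one (-0.0526 to 0.759). The arrays differed in brightness, with a median probe signal of 519 to 8014 and a signal over background of 1.62 to 14.6. CREB1 had 2.16 and 3.97 times background on C, 2.09 and 8.34 on 5mC, and 1.81 and 2.84 on 5hmC, and ATF1 had 3.22 and 3.43, 6.16 and 7.46, and 2.29 and 2.49. The part of this difference in the results was not tested. Between 0 and 3 member probes per array were saturated. The arrays of a group correlated over the 154 members with Pearson r from 0.764 to 0.929 for CREB1, 0.626 to 0.907 for ATF1 and 0.423 to 0.718 for JUND. The lowest was for JUND 5hmC, whose replicate 2 was the dimmest array.

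On unmodified DNA the members scored above other sequences with CREB1 and ATF1. The median z-score of the 154 members was 1.52 with CREB1, against 0.572 for 8-mers outside the motifs with 2 CpGs, 0.130 with 1, -0.170 with none, and -0.748 for those with 6 or more G or C and no CpG. With ATF1 the same medians were 0.956, 0.316, 0.0484, -0.135 and -0.806. The members' median with JUND was 0.541, so they scored above the array median with this protein too. On its C arrays 120 and 100 of the 154 members lay above 0, against 128 and 139 with CREB1 and 129 and 127 with ATF1. These medians are a description, since overlapping 8-mers share probes.

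An 8-mer counted as bound in a group if its z-score reached 4 on both arrays. CREB1 bound 21 of the 154 members on C (13.6%), where 3.94% of all tested 8-mers were bound. ATF1 bound 6 (3.90%; 2.38% of all). JUND bound 0 (0.283% of all), with the highest member mean at 4.67. It also bound 0 members on 5mC DNA, where 0.387% of all 8-mers were bound, and 0 on 5hmC DNA, where 0.103% were. A z-score of 4 is small beside the CRE itself, since TGACGTCA had 165 ± 40.0 (SD, n = 2) with CREB1 and 106 ± 22.4 with ATF1 on C. The CRE was lower on modified DNA. With CREB1 it had 22.8 ± 15.3 on 5mC and 36.2 ± 12.3 on 5hmC, and with ATF1 7.64 ± 1.35 and 8.86 ± 0.126. With JUND it had 69.1 and 13.9 on C, 3.22 and 1.66 on 5mC, and 4.55 and 2.44 on 5hmC. JUND thus did not bind the CRE on modified DNA at this level, and its lack of bound members there says little about the members.

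Members with GACG or CGTC held most of the CREB1 binding on C. Of the 21 bound members, 16 came from the 47 with GACG or CGTC and 5 from the 107 with neither. The median z-score was 4.11 for the 23 members that read GACG on the synthesized strand, 2.03 for the 23 that read CGTC and 0.934 for the 107 with neither. With ATF1 these medians were 2.16, 1.48 and 0.610, and 5 of the 6 bound members held GACG or CGTC. Members with CGACG or CGTCG had a median of 4.08 with CREB1 (16 of 41 bound), while those with CGGCG or CGCCG, which differ in the base between the CpGs, had 0.731 (0 of 44 bound).

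The bases beside the CpGs also separated the members on C. Of the bound CREB1 members, 16 were among the 37 with 2 A or T bases, 5 among the 80 with 1 and 0 among the 37 made of G and C alone. Members with ACGCG or CGCGT, where a T or A borders CGCG, had a median of 3.74 (17 of 45 bound). Those with CGCGCG had 1.50 (3 of 47 bound). These features overlap with one another and were not tested apart.

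CGACGCGT had the highest mean z-score of the members with CREB1 in C and 5mC and with ATF1 in the same groups. Its CREB1 values were 25.9 and 27.0 on C, 16.0 and 13.3 on 5mC, and 3.72 and 6.85 on 5hmC. The arrays of the 3 kinds of DNA did not overlap. Its ATF1 values were 10.3 and 7.36 on C, 9.34 and 9.82 on 5mC, and 2.02 and 1.89 on 5hmC, with C and 5mC overlapping and 5hmC lower. With JUND it lay between 1.18 and 3.43 on all 6 arrays.

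Next on CREB1 C came CGTCGACG, the only member with both GACG and CGTC, at 11.6 and 18.6, and CGTCGCGT at 8.98 and 17.1. The arrays of each disagreed by a wide margin, but stood above 4 in every case. CGCGTACG was the highest CREB1 member with neither GACG nor CGTC, at 9.00 ± 0.107, and the second highest of all members with ATF1, at 6.37 ± 0.420. It holds the self-complementary CGTACG.

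The motif rule removed 3 8-mers with 3 CpGs, which show what lies just outside it. With CREB1 on C, CGCGACGT had 20.1 ± 2.82 (SD, n = 2), CGACGTCG 10.2 ± 2.36 and ACGTCGCG 4.45 ± 1.49. All hold ACGT. Their values on 5hmC were 4.20 ± 0.340, 2.44 ± 0.333 and 0.0313 ± 0.111. Their range on C lay within that of the members, from -0.771 to 26.4.

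With 5mC, the members that fell with CREB1 were mostly members that read CGTC on the modified strand, and few members rose. By limma, with Benjamini-Hochberg adjustment over 65121 8-mers, 14 members fell and 4 rose. Among all tested 8-mers 6.21% fell and 2.25% rose (8.45% called in all), against 9.09% and 2.60% of the members. The share of members that rose was thus near the background. The median change of the members was -0.0758 against -0.0631 for all 8-mers. Among the 14 that fell were 11 of the 23 CGTC members, 2 of the 23 GACG members and CGTCGACG, which has both. The 4 that rose were among the 107 with neither.

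CGTCGCGT showed the largest fall. It went from 8.98 and 17.1 on C to 0.958 and 0.844 on 5mC (change -12.1, SE 1.47, limma adjusted p = 8.89e-06), so that both 5mC arrays lay below both C arrays. The SE rests on a spread shared by all 9 groups, whereas the SD of the CREB1 C arrays alone was 5.71. CGTCGACG went from 11.6 and 18.6 to 5.42 and 3.20 (change -10.8), CGTCGTCG from 7.01 and 10.9 to 2.13 and 1.82 (-6.98), and CGACGCGT as given above (-11.8). None of these had overlapping arrays, which was a condition for naming a rise or fall, here and below. With quantile normalization across arrays the change of CGACGCGT turned to 6.20 (adjusted p = 0.391). On the z-scores as deposited, the adjusted p was 1.21e-04 for CGTCGACG, 5.14e-04 for CGTCGTCG and 0.0112 for CGACGCGT.

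The same strand division was present at some of the GACG members that did not pass the test. ACGACGCG had 7.82 and 13.7 on C and 9.86 and 10.3 on 5mC, while its reverse complement CGCGTCGT fell from 7.93 and 10.9 to 1.59 and 3.57 (change -6.84, adjusted p = 2.29e-04). CGACGACG had 6.39 and 6.39 on C and 7.35 and 7.45 on 5mC. Other GACG members were lower on 5mC without passing, such as CCGACGCG (mean 10.6 on C, 8.01 on 5mC), ACGCGACG (8.12, 5.38) and GACGCGCG (5.89, 2.51). In 17 of the 23 GACG and CGTC pairs the change of the GACG member lay above that of its partner. The median CREB1 z-score of the GACG members was 4.11 on C and 4.34 on 5mC, and that of the CGTC members 2.03 and 1.09. CREB1 bound 15 members on 5mC DNA (1.38% of all 8-mers were bound), of which 12 read GACG and 1 CGTC.

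The CREB1 rises with 5mC were smaller. CGCGCGCA rose from 1.79 and 3.05 to 6.56 and 7.29 (change 4.50, SE 1.01, adjusted p = 0.00520) and CGCGCACG from 0.119 and 1.28 to 2.65 and 4.25 (change 2.75, adjusted p = 0.0253). Both read CGCA on the modified strand, a C followed by the C/EBP half-site GCAA without its last A. In both, as the naming required, the arrays did not overlap. An excluded motif formed across the edge on 4 of 16 probes of each. The third such member, CGCACGCG, had 0.870 and 3.14 on C and 3.01 and 3.96 on 5mC, and its arrays overlapped (adjusted p = 0.349). Of the 3 members with TGCG, the same bases on the opposite strand, 0 passed in either direction. For scale, the C/EBP palindrome TTGCGCAA had 4.77 ± 1.47 on C and 27.7 ± 6.15 on 5mC.

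The remaining rises stayed near the array median. CGGCGCCG rose from -0.770 ± 0.142 to 1.28 ± 0.389 (adjusted p = 0.0466) and CGCGACCG from -0.394 ± 0.261 to 1.05 ± 0.163 (adjusted p = 0.0467). Both lay far below the bound level of 4.

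The number of CREB1 calls with 5mC depended on the scaling, the arrays and the probes. Quantile normalization gave 4 calls and either log2 recomputation 5. The number was 9 without CREB1 C replicate 2, and 11 without either CREB1 5mC array. Over motif-free probes alone 5 members were called, where 1.01% of all 8-mers were, and 3 of the 5 were among the 18, namely CGTCGCGT, CGTCGGCG and CGCGTCGT. The other 2 held neither GACG nor CGTC. With those probes CGTCGCGT went from 10.4 ± 3.05 to 0.591 ± 0.164 (adjusted p = 3.19e-04), CGACGCGT from 39.7 ± 12.5 to 22.2 ± 7.04 (0.331) and CGCGCGCA from 1.71 ± 0.321 to 5.45 ± 3.14 (0.208). CGTCGACG had only 3 such probes, which gave 9.09 ± 7.70 on C and 11.4 ± 6.75 on 5mC (0.844), opposite in sign to the fall over all its probes.

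With 5hmC, CREB1 scored lower over the members as a group, in both orientations of GACG. By limma 27 members fell and 0 rose, where 6.78% of all 8-mers fell and 1.12% rose (7.89% called in all). The members' shares were 17.5% and 0%. The median change was -0.802 for the members against -0.0616 for all, and 116 of the 154 were lower. CREB1 bound 1 member on 5hmC DNA, ACGCGACG, where 1.13% of all 8-mers were bound. Among those that fell were 12 of the 23 CGTC members, 8 of the 23 GACG members, CGTCGACG and 6 of the 107 with neither.

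The largest CREB1 fall with 5hmC was that of CGACGCGT, from 25.9 and 27.0 to 3.72 and 6.85 (change -21.1, SE 2.90, adjusted p = 3.87e-05). CGTCGCGT fell from 8.98 and 17.1 to -0.475 and 0.465 (change -13.0, adjusted p = 3.54e-06). CGTCGACG fell from 11.6 and 18.6 to 2.97 and 3.84 (change -11.7, adjusted p = 5.15e-05). In all of these the 5hmC arrays lay below the C arrays without overlap, as the naming required.

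CGCGTCGT fell from 9.42 ± 2.10 to 0.0345 ± 0.983 (adjusted p = 5.92e-06). Its reverse complement ACGACGCG fell less, from 10.8 ± 4.18 to 4.90 ± 1.98 (adjusted p = 0.0323). ACGCGACG had 7.97 and 8.28 on C and 4.80 and 5.82 on 5hmC. Its change did not pass the test (adjusted p = 0.250), although its arrays did not overlap.

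The 6 members with neither GACG nor CGTC that fell each held ACG or CGT. CGCGTACG had the largest of these falls, from 9.00 ± 0.107 to 2.74 ± 1.04 (adjusted p = 0.00102). By composition, 16 of the 37 members with 2 A or T bases fell with 5hmC, 11 of the 80 with 1 and 0 of the 37 with none. The members with 2 A or T bases also had the highest median on C, at 4.08 against 1.56 and 0.430.

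Counts with 5hmC again moved with the scaling and with single arrays. Quantile normalization gave 7 calls, the log2 recomputation 15 and the same after normexp 10. The counts were 15 when CREB1 C replicate 2 was left out and 15 when CREB1 5hmC replicate 1 was. Over motif-free probes 15 members fell, where 1.32% of all 8-mers were called, and all 15 were among the 27. These were 8 of the CGTC members, 5 of the GACG members and 2 with neither. CGACGCGT then went from 39.7 ± 12.5 to 9.78 ± 4.14 (adjusted p = 0.0428) and CCGACGCG, a member with no motif across its edges, from 13.6 ± 5.77 to 1.51 ± 0.928 (adjusted p = 0.00173).

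Compared directly, CREB1 scored lower on 5hmC than on 5mC at 128 of the 154 members, with a median change of -0.774 against -0.0261 for all 8-mers. By limma 2 fell and 0 rose, where 0.766% of all 8-mers fell and 0.186% rose (0.952% in all). CCGACGCG went from 9.62 and 6.41 on 5mC to 1.44 and 2.42 on 5hmC (change -6.09, adjusted p = 0.0388). CGACGCGA went from 5.71 and 6.41 to 0.431 and 2.82 (change -4.44, adjusted p = 0.0416). Both read GACG on the modified strand and, as the naming required, neither had overlapping arrays. The count was 0 without CREB1 5mC replicate 1 or CREB1 5hmC replicate 1, and 1 without the other array of either group.

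ATF1 had a median member score of 0.956 on C, 0.858 on 5mC and 0.0791 on 5hmC. With 5mC 2 members fell and 2 rose by limma, where 2.06% of all 8-mers fell and 1.19% rose (3.25% in all), so the members' shares of 1.30% and 1.30% were near the background. CGCGTCGT fell from 7.85 and 4.62 to 0.337 and 0.925 (change -5.61, adjusted p = 0.00910) and CGTCGGCG from 1.85 and 1.10 to -1.15 and -1.11 (change -2.61, adjusted p = 0.0359). Both read CGTC, and their arrays did not overlap, again by the choice of named members.

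The ATF1 rises with 5mC were at CGCGCACG and CGCGACGC. CGCGCACG, a CGCA member, rose from -0.120 and 0.207 to 3.45 and 3.49 (adjusted p = 0.0178). CGCGACGC, a GACG member, rose from 1.98 and 1.50 to 5.61 and 5.39 (adjusted p = 0.0486). Both 5mC arrays agreed closely and, as the naming required, lay above the C arrays. ATF1 bound 7 members on 5mC DNA (0.855% of all 8-mers), of which 6 read GACG and 0 CGTC. The median ATF1 z-score was 2.16 on C and 3.65 on 5mC for GACG members, and 1.48 and 0.613 for CGTC members.

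With 5hmC 8 members fell with ATF1 and 0 rose, where 2.08% of all 8-mers fell and 0.0998% rose (2.18% in all). The median change was -0.861 for the members and -0.0274 for all 8-mers, and 134 of the 154 were lower. The 8 comprised 6 CGTC members and 2 with neither. CGCGTCGT had 7.85 and 4.62 on C and -0.128 and -0.368 on 5hmC (change -6.49, adjusted p = 0.00436). CGTCGCGT had 5.38 and 3.95 on C and -0.786 and -1.86 on 5hmC (change -5.99, adjusted p = 0.0353). CGCGTACG fell from 6.37 ± 0.420 to 1.61 ± 1.29 (adjusted p = 0.0347) and CGCGTCGC from 4.73 ± 1.04 to -0.550 ± 0.235 (adjusted p = 0.0248). In these 4 the arrays of C and 5hmC did not overlap, as the naming required. ATF1 bound 0 members on 5hmC DNA (0.327% of all 8-mers).

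Between the modified bases, ATF1 scored lower on 5hmC than on 5mC at 132 of the 154 members (median change -0.811; all 8-mers -0.0359). One member passed, CGCGACGC, which went from 5.61 and 5.39 to 1.04 and -0.0221 (adjusted p = 0.0290), where 0.591% of all 8-mers fell and 0.134% rose (0.725% in all). The numbers of ATF1 calls moved widely with the fit. With only the ATF1 arrays fitted they were 19 with 5mC, 26 with 5hmC and 22 between the bases, and array weights gave 26 with 5mC. For comparison, CREB1 arrays fitted alone gave 13, 17 and 1, so which of the 2 proteins had more calls depended on the fit. The calls also rested on every array. Leaving out ATF1 C replicate 2 left 1 call with 5mC and 1 with 5hmC, and leaving out any other array of the compared groups left 0 in each of the 3 ATF1 comparisons. Over motif-free probes 0 members passed with either base against C, where 0.253% of all 8-mers were called with 5mC and 0.0306% with 5hmC. The members with an unadjusted p under 0.05 over all probes numbered 32 with 5mC and 47 with 5hmC.

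JUND bound none of the members and showed little change. On 5mC and 5hmC DNA its score at the CRE did not reach 4 on both arrays either. Its highest member means on C were at runs of alternating C and G: CGCGCGCG at 5.39 and 3.95, GCGCGCGA at 6.73 and 2.08, and GCGCGCGC at 4.70 and 3.51. The 47 members with CGCGCG had a median JUND z-score of 1.06 on C, 0.490 on 5mC and 1.00 on 5hmC, and the 92 with CGCG but not CGCGCG had 0.268, 0.589 and 0.242. The arrays of JUND C differed at GCGCGCGA by more than the gap between these medians.

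By limma 0 members passed with JUND and 5mC (1.04% of all 8-mers; 16 members at an unadjusted p under 0.05, and 1 called by limma without a mean-variance trend). With 5hmC 0 passed (0% of all 8-mers; 1 member at an unadjusted p under 0.05, and 0 without the trend). Between 5hmC and 5mC 1 member rose, CGCGGCGG, from -1.08 and -1.13 on 5mC to 0.746 and 0.727 on 5hmC, where 0.946% of all 8-mers rose and 2.16% fell (3.11% in all). JUND C for this member was 0.416 and 0.622. The call of CGCGGCGG was lost without JUND 5mC replicate 1 (adjusted p = 0.116), JUND 5mC replicate 2 (0.112) or JUND 5hmC replicate 2 (0.0679). Without JUND 5mC replicate 2 another member was called, and without JUND 5hmC replicate 1 the count was 3.

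Whether a modified base changed the scores of 1 protein more than those of another was tested with interaction contrasts in limma. The change with 5mC was lower with CREB1 than with JUND at 7 members and higher at 1, where 2.83% and 0.511% of all 8-mers were (3.34% in all). The one higher was CGCGCGCA. The change with 5hmC was lower with CREB1 than with JUND at 14 members and higher at 0 (2.89% and 0.174% of all; 3.06% in all). Since JUND bound none of the members on C, these contrasts cannot tell a different response from a lower starting score. CREB1 and ATF1 differed at 0 members with 5mC (0.272% of all; 9 members at an unadjusted p under 0.05, 1 called without the trend) and at 0 with 5hmC (0.215%; 13 and 1). ATF1 and JUND differed at 0 with 5mC (0.0138%; 12 and 0) and at 0 with 5hmC (0.0184%; 29 and 0).

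For CREB1 against JUND, the count of 8 with 5mC was 14 without CREB1 C replicate 1, 4 without CREB1 C replicate 2, 3 and 5 without CREB1 5mC replicates 1 and 2, and 2 without JUND C replicate 2 or JUND 5mC replicate 1. The count of 14 with 5hmC was 6 without CREB1 5hmC replicate 1, 7 without JUND C replicate 2 and 9 without CREB1 C replicate 2. Where no member was called, CREB1 against ATF1 had 5 calls with 5mC and 8 with 5hmC without CREB1 C replicate 1, and ATF1 against JUND had 6 with 5hmC without JUND 5hmC replicate 1.

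Pairs of reverse complements gave a comparison of the 2 orientations of the same double-stranded sequence. The score of each member followed its own probes, those carrying it on the synthesized strand, so the bases around the pair differed too. For example, ACGACGCG stood on 18 probes, with an excluded motif across the edge on 1, and CGCGTCGT on 16, with 3. The part of these probe differences in the results was not tested apart from orientation. A GACG member carries the modified base at the C of GACG, whereas in its reverse complement the GACG lies on the unmodified strand and both cytosines of CGTC are modified. Over the 23 such pairs the GACG member had the higher CREB1 z-score in 17 on C, 21 on 5mC and 22 on 5hmC, with a median difference of 1.64, 3.65 and 2.46. With ATF1 it was higher in 14, 23 and 21 pairs, with medians of 0.508, 2.86 and 1.36. With JUND it was higher in 17, 21 and 18, with medians of 1.22, 1.29 and 0.678. The difference was thus present on unmodified DNA as well with CREB1 and JUND, where both strands carry unmodified C. On the 2 C arrays the GACG member was higher in 15 and 17 pairs with CREB1 and 16 and 19 with JUND. It was weakest with ATF1, at 15 and 13 of the 23 pairs.

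The change of this difference with modification was tested by limma on the z-score of an 8-mer minus that of its reverse complement, over 32225 pairs, a test chosen after seeing the data. With 5mC and CREB1 6 of the 73 member pairs passed, where 4.43% of all pairs did. In 5 of these the GACG member changed more upward than its partner, and the other was CGCGCGCA with TGCGCGCG. The widest was ACGCGACG with CGTCGCGT. On C the GACG member had 7.97 and 8.28 and its partner 8.98 and 17.1, and on 5mC 5.08 and 5.68 against 0.958 and 0.844 (difference of changes 9.37, SE 1.72, adjusted p = 0.00178). The order of the 2 orientations was turned, since the CGTC member was higher on both C arrays and lower on both 5mC arrays.

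CGACGACG with CGTCGTCG showed the same turn. Its means were 6.39 against 8.96 on C and 7.40 against 1.98 on 5mC (difference of changes 7.99, adjusted p = 0.00240). CGCCGACG with CGTCGGCG had 2.23 against 4.29 on C and 4.20 against -0.700 on 5mC (6.96, adjusted p = 0.00154). For CGCGCGCA and TGCGCGCG, 2.42 against 0.841 on C became 6.92 against 1.12 on 5mC (4.22, adjusted p = 0.0385).

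With 5hmC and CREB1 6 of the 73 member pairs passed (3.57% of all pairs), 4 with the GACG member changing more upward and 2 with it changing more downward. The latter were CGACGCGT with ACGCGTCG, which had means of 26.4 against 9.11 on C and 5.28 against 0.975 on 5hmC, and CCGACGCG with CGCGTCGG, which had 10.6 against 1.79 and 1.93 against 0.0914. In both the GACG member had been far the higher on C and stayed above its partner on 5hmC.

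With ATF1 and 5mC 4 of the 73 passed (1.46% of all pairs), all with the GACG member changing more upward. CGCGACGC with GCGTCGCG went from 1.74 against 3.01 on C to 5.50 against 0.941 on 5mC (difference of changes 5.83, adjusted p = 0.0129). No member pair passed with ATF1 and 5hmC (0.0403% of all pairs) or with JUND and 5mC (2.61%) or 5hmC (0%).

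Over motif-free probes 2 member pairs passed with CREB1 and 5mC (0.407% of all pairs), of which 1 was among the 6. With 5hmC 5 passed (0.483%), all 5 among the 6, and with ATF1 and 5mC 1 passed (0.266%), which was among the 4. Every pair called with the deposited z-scores had the same direction with motif-free probes. ACGCGACG with CGTCGCGT then had a difference of changes of 7.86 (adjusted p = 0.0633) with 5mC and 8.87 (adjusted p = 0.0260) with 5hmC.

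The strand split was also visible in 8-mers with fewer CpGs outside the motifs. With CREB1 and 5mC, 105 of 293 CGTC 8-mers with 2 CpGs fell and 0 rose, against 31 that fell and 8 that rose of 293 GACG 8-mers. With 1 CpG, 81 of 471 CGTC 8-mers fell and 43 of 477 GACG 8-mers did. On C the CREB1 medians of the GACG 8-mers were 4.11 in the members, 2.23 with 2 CpGs and 0.846 with 1, and those of the CGTC 8-mers 2.03, 1.66 and 0.591. The share that fell was 47.8% of the CGTC members, 35.8% with 2 CpGs and 17.2% with 1, and it was not tested between these classes.

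The 8 self-complementary members read alike on both strands, so each probe carries modified and unmodified copies of the same bases. Their CREB1 median was 2.15 on C, 2.71 on 5mC and 1.42 on 5hmC. With CREB1 and 5mC 1 fell (CGTCGACG) and 1 rose (CGGCGCCG), and with 5hmC 1 fell (CGTCGACG). The other bound one on C was ACGCGCGT, with 4.72 and 6.28 on C, 3.97 and 3.81 on 5mC and 2.48 and 3.13 on 5hmC. CGCGCGCG, with 4 CpGs, had CREB1 values of 3.85 and 4.47 on C, 3.96 and 2.65 on 5mC and 3.52 and 2.38 on 5hmC. Its ATF1 values were 2.69 and 3.28, 2.39 and 2.24, and 2.00 and 2.70. It passed in none of the 15 comparisons. Its CREB1 mean on C, 4.16 ± 0.441, lay below those of members with 3 CpGs such as CGACGCGT and CGCGTACG.

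The number of cytosines on the modified strand was 3 in 87 members, 4 in 57 and 5 in 10. With CREB1 and 5hmC 22 of the 87 fell, 5 of the 57 and 0 of the 10. The CREB1 medians on C of these classes were 1.80, 1.18 and 0.627, so the members with the most modified bases also had the lowest median on unmodified DNA.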

How the data were processed

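Per the file headers, the deposited probe values are scanner intensity, as 1 median signal and 1 local background per probe on each of the 18 arrays. The deposited z-score, 1 score per 8-mer and array, is the authors' own, and neither labels nor file headers state how the authors computed it. Scanner and image software are likewise unstated there. The 409 8-mers carried by no probe were left out, and 6 null cells stayed missing, none in a member.

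Arrays were grouped by protein and cytosine form as the labels give them. The z-scores of all 18 arrays were fitted with limma 3.58.1 in R 4.3.3, with 1 mean per group (9 residual and 10.7 prior degrees of freedom), variances moderated with a trend on the mean, and two-sided p-values adjusted by Benjamini-Hochberg over 65121 8-mers at 0.05. A member rose or fell where it passed. There were 9 comparisons of cytosine forms and 6 differences between proteins. Each 8-mer has 1 spread shared by all groups, and with 2 arrays per group the precision is limited. Where 1 group scores high and varies more, as CREB1 C did at CGTCGCGT (SD 5.71) and CGTCGACG (SD 4.99), the shared spread can understate that of the groups compared. The SE and p-values of the largest CREB1 falls should be read with this limit. The fit was tested on simulated data. Other steps used Python 3.11.15, numpy 2.4.6 and pandas 2.3.3.

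Members named are the 3 with the highest mean per group, up to 4 rises and 4 falls per comparison whose arrays do not overlap, the self-complementary members, the member with 4 CpGs and the 8-mers the motifs removed. Reverse complements and further members of pairs were named after their values were seen. The members, features and rules were chosen with earlier results of these data known.

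Alternatives were a replicate block, no trend, only the arrays of the proteins compared, array weights, quantile normalization, log2 recomputation from probe intensity (floor 1, also after normexp with offset 50), a minimum of 10 probes, z-scores of 3 and 6 as the bound level, and each array left out. Alternatives chosen after seeing the data were a linear recomputation (median over probes of background-subtracted signal, centred and scaled by the median absolute deviation) over every probe and over motif-free probes, a fit without the JUND 5hmC arrays, a crossed block and the test of reverse complements.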

Additional observations from a re-analysis of the deposited data

Results flagged for a closer look

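The following members stood out because their change with a modified base differed between CREB1 and JUND by a test of the difference itself (limma interaction contrast, Benjamini-Hochberg adjusted). With 5mC 8 members differed (5.19%, against 3.34% of all 8-mers). The change with CREB1 minus that with JUND was -12.4 at CGTCGCGT, -10.1 at CGTCGACG, -6.17 at CGCGTCGT, -4.90 at CGTCGGCG and 5.23 at CGCGCGCA. With 5hmC 14 members differed (9.09%, against 3.06% of all 8-mers). The difference was -20.9 at CGACGCGT, -13.5 at CGTCGCGT, -10.9 at CGTCGACG, -9.83 at CGCGTCGT, -8.33 at CCGACGCG, -7.85 at CGCGTCGC, -6.97 at CGTCGTCG, -6.27 at CGACGCGA and -4.88 at CGTCGGCG. At CGTCGCGT the JUND values were -1.08 and -2.07 on C, -0.990 and -1.49 on 5mC and -1.34 and -0.883 on 5hmC. JUND thus scored below the array median on all 6 arrays, and the differences at this member rest on the fall with CREB1. JUND means on C were 0.239 at CGCGTCGT, -0.377 at CGTCGGCG, -0.190 at CGCGTCGC and -0.817 at CCGACGCG, but 2.56 at CGACGCGT. The scales also differed, with TGACGTCA on C at 41.5 ± 39.0 with JUND and 165 ± 40.0 with CREB1. Since JUND bound none of the members on C, a different response cannot be told apart from a lower starting score.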

How the results depend on the processing

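Alternatives changed counts more than directions: over 24 named changes, 254 values kept their direction and side of the threshold, 127 kept the direction but lost the call, and 2 reversed. These totals pool settings that differed widely. Motif-free probes kept 4 of the 24 calls, lost 19 and reversed 1. The log2 recomputation kept 14, and the same after normexp 11, while array weights kept 23 and the minimum of 10 probes all 24. CGACGCGT with CREB1 and 5mC was 6.20 with quantile normalization (adjusted p = 0.391), and CGTCGACG with CREB1 and 5mC was 2.29 with motif-free probes (adjusted p = 0.844). The cause of these 2 reversals was not tested. The falls of CGTCGCGT with CREB1 kept their call in each alternative run for both bases. Members called were as follows. For CREB1 5mC against C (18), quantile normalization gave 4, and the log2 recomputation, the same after normexp and motif-free probes gave 5 each. For CREB1 5hmC against C (27), CREB1 arrays alone gave 17, quantile normalization 7, log2 15, normexp 10 and motif-free probes 15. For CREB1 5hmC against 5mC (2), the replicate block and the crossed block gave 1, no trend 6, own arrays 1, weights 5, log2, normexp and motif-free probes 0, and the fit without JUND 5hmC arrays 4. For ATF1 5mC against C (4), own arrays gave 19, weights 26, quantile 10, the linear recomputation 2 and motif-free probes 0. For ATF1 5hmC against C (8), no trend gave 13, own arrays 26 and motif-free probes 0. For ATF1 5hmC against 5mC (1), no trend gave 8, own arrays 22, weights 8, quantile 11, log2 9, normexp 6, the minimum of 10 probes 2, linear 6 and without JUND 5hmC arrays 5. For JUND 5mC against C (0), no trend and without JUND 5hmC arrays gave 1. For JUND 5hmC against 5mC (1), the block gave 2, no trend 3, own arrays, weights and motif-free probes 0, quantile 3, log2 and normexp 4, the probe minimum 2 and linear 3. CREB1 against ATF1 (0) gave 1 with no trend for each base and 1 with weights for 5mC. CREB1 against JUND gave, for 5mC (8), own arrays 3, quantile, log2 and normexp 1 and motif-free probes 2, and for 5hmC (14), own arrays 5, quantile 1, log2 3, normexp 2 and motif-free probes 3. ATF1 against JUND (0) gave 1 with own arrays for 5mC, and for 5hmC own arrays 3 and quantile, log2 and normexp 1. Leaving out 1 array gave 9 to 19 for CREB1 5mC, 15 to 28 for CREB1 5hmC, 0 to 1 between them, 0 to 1 for ATF1 5mC, 0 to 1 for ATF1 5hmC, 0 to 0 between them, 0 to 1 for JUND 5mC, 0 to 0 for JUND 5hmC and 0 to 3 between them. For the differences between proteins it gave 0 to 5 (5mC) and 0 to 8 (5hmC) for CREB1 against ATF1, 2 to 14 and 6 to 20 for CREB1 against JUND, and 0 to 0 and 0 to 6 for ATF1 against JUND. At bound levels of 3 and 6, members bound were 31 and 14 (CREB1 C), 23 and 6 (CREB1 5mC), 7 and 0 (CREB1 5hmC), 15 and 2 (ATF1 C), 17 and 1 (ATF1 5mC), 0 and 0 (ATF1 5hmC), 2 and 0 (JUND C), 2 and 0 (JUND 5mC) and 0 and 0 (JUND 5hmC).

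With the replicate number as a block, CREB1 had 15 calls with 5mC and 25 with 5hmC, and ATF1 3 with 5mC. The block ended 5 of the 24 named calls, those of CGGCGCCG, CGCGACCG, CCGACGCG, CGACGCGA and CGCGACGC with ATF1 and 5mC, at adjusted p from 0.0502 to 0.0595. Deviations of same-numbered arrays correlated positively between C and 5hmC (0.202 for CREB1, 0.216 for ATF1, 0.636 for JUND), and from -0.163 to 0.153 between 5mC and the other forms. With 2 numbers per group and no pairing in the labels, whether the numbers mark a shared batch was not settled. With the CREB1 and ATF1 5mC numbers crossed, CREB1 had 16 and 26. The fewer probes behind motif-free values (median 10.0 against 17.0) and low signal over background on the 5hmC arrays limit what can be detected. In the log2 recomputation without normexp, 15.9% of probes stood at the floor on JUND 5hmC replicate 2. On replicate 1 of CREB1 5hmC and CREB1 5mC 4.96% and 4.41% did. What this adds to the log2 counts was not tested.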
